A study of Mus musculus with 4 samples.

Results

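The genes Hoxa9, Hoxa10, Hoxa11 and Hoxa13 form the posterior end of the HoxA cluster on mouse chromosome 6. They were taken as a group by name, not by any measured value. Open chromatin at these genes was read from peak lists of ATAC-seq, an assay that uses the Tn5 transposase to cut and tag accessible DNA. A peak was counted for a gene if it overlapped the gene body or 5 kb on either side of it in the GENCODE M21 annotation. The 4 windows held 21 of the 75101 peaks in the series, which merged into 15 of 44692 regions. The tissue was the posterior part of the forelimb bud at E10.5 (embryonic day, 35 somites). There were 2 wild-type (WT) libraries and 2 Shh-/- libraries, all on a Swiss Webster background, each made from the pair of posterior forelimb fractions of its own embryo. A reaction took 5000 cells, and PCR ran for 18 cycles. Replicates of a genotype are called rep 1 and rep 2. The Shh-/- embryos carried the Shh tm1amc null allele in every tissue, so the loss of Sonic hedgehog (SHH) was not limited to the limb. A gain or loss in a mixed tissue can come from a change in the cells present or in the chromatin of each cell, and the 2 cannot be told apart in these bulk samples.

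Hox genes encode homeodomain transcription factors that give cells their position along the body and along the limb. They lie in clusters, and their order on the chromosome follows the order in which they are used. Hoxa9 and Hoxa10 act with their HoxD counterparts in the upper limb, Hoxa11 in the forearm and Hoxa13 in the hand plate, where it is switched on last. The posterior HoxA and HoxD genes are needed for Shh expression in the limb bud.

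All 4 genes are read from the minus strand of mm10 chromosome 6, so Hoxa9 has the lowest coordinates and Hoxa13 the highest. Hoxa9 (ENSMUSG00000038227.15) runs from 52223100 to 52231089 and Hoxa10 (ENSMUSG00000000938.11) from 52231197 to 52240854. Hoxa11 (ENSMUSG00000038210.10) runs from 52242106 to 52245810 and Hoxa13 (ENSMUSG00000038203.18) from 52257694 to 52260880. The windows of Hoxa9 and Hoxa10 overlap each other, as do those of Hoxa10 and Hoxa11, so a peak can belong to 2 genes. The Hoxa13 window stood apart from the others, with a gap of 1.883 kb that held 0 peaks. The merged windows covered 45.898 kb, of which 32.711 kb belonged to Hoxa9 to Hoxa11 and 13.187 kb to Hoxa13.

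The sequences below are those on which the peak positions turn, written on the minus strand of mm10 in the direction of transcription. The first is 200 bp around the summit, in Shh-/- rep 1, of a region over the upstream end of Hoxa7, one of the 2 regions called in most libraries, at chr6:52221877-52222076. The others are the 250 bases before a RefSeq transcription start site (RefSeq, GRCm38.p6), shown because the start sites of the 4 genes differed in which library had a peak there. They lie at chr6:52227371-52227620 for the longer Hoxa9 transcript and at chr6:52234940-52235189 and chr6:52240855-52241104 for the shorter and longer Hoxa10 transcripts. Those of Hoxa11 and Hoxa13 lie at chr6:52245811-52246060 and chr6:52260881-52261130. Capitals mark matches on either strand to GGGCGG, known as the GC box and bound by SP proteins. They also mark the CCAAT box, a common promoter element, and CNAGGNGGC, part of the site bound by the insulator protein CTCF. Marked letters that overlap run together.
Upstream Hoxa7 region: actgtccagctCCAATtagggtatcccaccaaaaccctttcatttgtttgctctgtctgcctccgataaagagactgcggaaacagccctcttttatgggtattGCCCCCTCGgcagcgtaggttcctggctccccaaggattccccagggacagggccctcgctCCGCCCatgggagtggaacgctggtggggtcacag
Hoxa9 start: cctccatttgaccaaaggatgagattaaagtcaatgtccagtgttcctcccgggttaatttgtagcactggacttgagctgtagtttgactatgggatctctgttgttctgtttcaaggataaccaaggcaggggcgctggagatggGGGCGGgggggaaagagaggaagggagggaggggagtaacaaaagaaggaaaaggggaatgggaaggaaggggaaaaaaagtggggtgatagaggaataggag
Hoxa10 shorter transcript start: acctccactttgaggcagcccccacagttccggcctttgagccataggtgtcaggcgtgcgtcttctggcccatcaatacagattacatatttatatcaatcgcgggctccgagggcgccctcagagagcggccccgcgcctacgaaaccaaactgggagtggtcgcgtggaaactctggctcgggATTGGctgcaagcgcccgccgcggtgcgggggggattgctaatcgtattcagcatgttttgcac
Hoxa10 longer transcript start: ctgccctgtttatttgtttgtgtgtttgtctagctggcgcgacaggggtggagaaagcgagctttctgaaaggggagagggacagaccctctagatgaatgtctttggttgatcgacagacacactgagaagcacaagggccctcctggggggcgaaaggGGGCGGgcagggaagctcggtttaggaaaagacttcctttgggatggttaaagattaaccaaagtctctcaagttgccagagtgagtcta
Hoxa11 start: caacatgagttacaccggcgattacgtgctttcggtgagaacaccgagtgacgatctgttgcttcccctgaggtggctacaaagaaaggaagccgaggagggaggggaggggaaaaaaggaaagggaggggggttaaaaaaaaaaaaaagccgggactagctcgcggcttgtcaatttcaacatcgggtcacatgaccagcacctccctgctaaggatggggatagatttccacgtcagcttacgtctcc
Hoxa13 start: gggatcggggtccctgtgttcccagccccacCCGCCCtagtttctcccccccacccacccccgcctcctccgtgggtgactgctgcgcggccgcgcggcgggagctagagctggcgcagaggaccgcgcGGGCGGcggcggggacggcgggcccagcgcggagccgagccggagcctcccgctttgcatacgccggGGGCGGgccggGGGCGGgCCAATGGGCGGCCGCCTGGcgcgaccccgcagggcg

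The sequence before the Hoxa13 start was 80% G and C and held 5 GC boxes, while that before the Hoxa11 start was 52% G and C and held none of the marked letters. Peaks covered 250 of the 250 bases before the Hoxa11 start in Shh-/- rep 2 and 0 bases in the other 3 libraries. Before the shorter Hoxa10 start they covered 250 bases in WT rep 1 and 114 in Shh-/- rep 2. Before the longer Hoxa10 start they covered 97 bases in WT rep 1 alone. Before the start of the longer Hoxa9 transcript they covered 119 bases in Shh-/- rep 2 alone, and before the Hoxa13 start 0 bases in each of the 4 libraries. The sequence of the upstream Hoxa7 region lay wholly inside a peak in WT rep 1 and in both Shh-/- libraries.

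The lists held 39080 peaks in WT rep 1, 11973 in WT rep 2 and 18459 in Shh-/- rep 2, and Shh-/- rep 1 had the shortest list. They hold no read counts, so the depth of each library is unknown, and a gene without a peak is one at which none was called, not one with closed chromatin. Promoter peaks at 8 limb mesenchyme genes were called for 8 in WT rep 1, 4 in WT rep 2, 4 in Shh-/- rep 1 and 6 in Shh-/- rep 2. Only Prrx1 and Fgf10 among them had one in every library. Of 20 markers of ectoderm, muscle progenitors, endothelium, blood and neural cells, 6, 2, 0 and 5 had a promoter peak in the same order. Of all protein-coding genes, 60.4%, 39.3%, 17.3% and 51.3% had one. The part of other cells in the peaks at the HoxA genes was not tested. At Shh itself, gene body and 5 kb either side, there were 3, 0, 0 and 2 peaks in the same order. A peak list does not show whether DNA is missing, so these counts are no check of the genotype.

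Peaks at the 4 genes were called in WT rep 1 and in both Shh-/- libraries, and none in WT rep 2. WT rep 1 had 12 peaks, Shh-/- rep 1 had 2 and Shh-/- rep 2 had 7. All 4 genes had at least 1 peak in WT rep 1, where 69.1% of 21938 protein-coding genes had one in the same kind of window. In Shh-/- rep 2 there were peaks at 3 of the 4 genes, all but Hoxa13, against 59.2% of all genes. In Shh-/- rep 1 there were peaks at Hoxa9 and Hoxa10, 2 of the 4 genes, against 24%. The Hoxa10 count there came from a peak near the start of the shorter Hoxa9 transcript that lies in both windows. In WT rep 2 there were peaks at 0 of the 4 genes, against 47.6%. Windows as long as those of the 4, from 13.187 to 19.658 kb, belonged to 5044 genes. Of these, 55% had a peak in WT rep 1, 36.5% in WT rep 2, 18.7% in Shh-/- rep 1 and 44.6% in Shh-/- rep 2. The nearest peak of WT rep 2 lay 34.9 kb from the nearer Hoxa9 start site and 69.5 kb from that of Hoxa13. Over each whole list, the 200 bp around the summits had a median GC content of 56% in WT rep 1 and 63% in WT rep 2. It was 56.5% in Shh-/- rep 1 and 61.5% in Shh-/- rep 2, and 52.5% in the 15 regions. Whether GC content has a part in the calls at these genes was not tested.

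**Figure D1:**
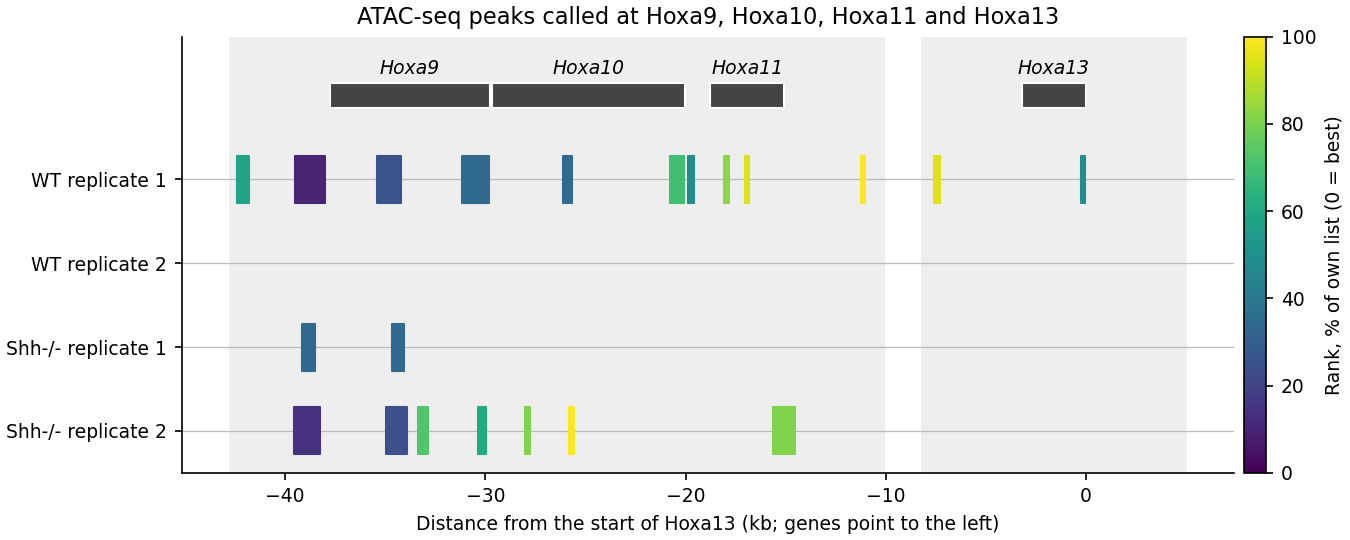
Peaks of the 4 libraries along the posterior HoxA genes, by distance in kb from the Hoxa13 start site, with genes drawn as dark bars, the windows shaded and each peak coloured by its rank as a percent of its own list. WT rep 2 has no peak, and the Hoxa13 window has peaks in WT rep 1 alone.

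The 2 regions called in the most libraries lay at the Hoxa9 end. Each was called in WT rep 1 and in both Shh-/- libraries, a pattern found in 2.26% of all 44692 regions. The first, the upstream Hoxa7 region, lay in the Hoxa9 window between the Hoxa7 and Hoxa9 transcripts of the GENCODE basic set. In the full set its 3 peaks overlapped the first exon, from 52221547 to 52221854, of a longer Hoxa7 transcript. The summits lay 2 bp (WT rep 1) and 96 bp (Shh-/- rep 2) after the start of that transcript and 123 bp before it (Shh-/- rep 1). Its peak ran from 52221387 to 52222889 in WT rep 1 (1503 bp), from 52221740 to 52222373 in Shh-/- rep 1 (634 bp) and from 52221338 to 52222632 in Shh-/- rep 2 (1295 bp). The shortest of these peaks lay inside the other 2, and the summits spread over 219 bp. Peaks were ranked within their own list by the deposited score, with rank 1 the highest. This peak overlapped none of the bodies of the 4 genes. It ranked 3821 in WT rep 1, within the first 9.78% of the list, and was the best ranked peak in their windows there. It ranked 2663 (14.4% of the list) in Shh-/- rep 2, again the best in the windows. In Shh-/- rep 1 it ranked 1866 (33.4%), in a tie that ran from 1737 to 1911 and took in the only other peak in the windows.

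The second region lay at the start of the shorter Hoxa9 transcript, which the peaks of WT rep 1 and Shh-/- rep 2 covered and that of Shh-/- rep 1 missed by 21 bp. Its peak ran from 52225477 to 52226648 in WT rep 1, from 52226210 to 52226796 in Shh-/- rep 1 and from 52225912 to 52226951 in Shh-/- rep 2. The 3 peaks had 439 bp in common. Their summits lay 259, 115 and 287 bp before the start of the shorter transcript, in sequence annotated as untranslated Hoxa9 exon. They ranked at 25.6%, 33.4% and 24.5% of their lists. In rank, the 3 libraries lay closer together here than at the upstream Hoxa7 region, with no difference tested.

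Farther upstream at Hoxa9, Shh-/- rep 2 alone had a peak 423 bp before the start of the longer transcript, from 52227502 to 52228035, which ranked 13452 (72.9%). Between it and Hoxa10 lay the gene of microRNA 196b (Mir196b), a microRNA of the cluster that is known to repress Hox messages. In WT rep 1 a peak from 52229715 to 52231075 covered this gene and ranked 13428 (34.4%). In Shh-/- rep 2 a shorter peak, from 52230518 to 52230904, ranked 11201 (60.7%) and lay wholly inside the WT peak but upstream of the microRNA. Its summit was 709 bp from that in WT rep 1 and 224 bp before the start of a Hoxa9 transcript outside the basic set. Exons of Hoxa9 transcripts of the full set lay under both peaks. The mature sequences under the WT rep 1 peak are given from RefSeq, with the seed (bases 2 to 8) in capitals.
mmu-miR-196b-5p: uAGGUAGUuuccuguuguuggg
mmu-miR-196b-3p: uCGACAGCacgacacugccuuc

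At Hoxa10, peaks lay at both starts. At the shorter transcript, WT rep 1 had a peak from 52234772 to 52235221 whose summit lay 19 bp before the start, at rank 13429 (34.4%). Shh-/- rep 2 had one from 52235076 to 52235333, with its summit 346 bp before the start and at rank 18358 (99.5%), among the lowest scores of its list. The 2 peaks shared 146 bp. At the longer transcript, peaks were called in WT rep 1 alone, one in the first exon from 52240125 to 52240780 (69.7%) and one 229 bp before the start from 52241008 to 52241298 (49.0%). The nearest peak to that start in Shh-/- rep 2 was 4.389 kb away. Shh-/- rep 2 in turn had a peak inside the Hoxa10 intron from 52232866 to 52233129 (80.9%) that no other list held.

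At Hoxa11 the 2 libraries with peaks in its gene body placed them at different sites. Shh-/- rep 2 had a peak of 1100 bp over the start site, from 52245243 to 52246342, with the summit 36 bp before the start and a rank of 14928 (80.9%). Hoxa11os, a long noncoding RNA read from the opposite strand, starts under the same peak, as does the overlapping transcript Gm28032. ATAC-seq does not record strand, so an open promoter there cannot be given to one of these genes. WT rep 1 had no peak over the start, the nearest being 1.753 kb away. It had peaks in the untranslated end of Hoxa11 from 52242822 to 52243061 (83.2%), in the intron from 52243853 to 52244057 (94.6%) and over an exon of Hoxa11os from 52249645 to 52249867 (99.3%). All 4 of these peaks ranked at 80.9% of their list or further down. In Shh-/- rep 1 the nearest peak was 19.0 kb from the Hoxa11 start.

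At Hoxa13, WT rep 1 was the only library with a peak. It had one of 222 bp in the first coding exon, from 52260615 to 52260836, with the summit 56 bp after the nearest of its annotated starts and a rank of 19164 (49.0%), in a tie that ran from 17141 to 19760. The same peak lay in the promoter range, 2 kb before to 1 kb after a start, of other annotated genes. It therefore cannot be given to Hoxa13 alone. A second, lower peak lay 7.423 kb after the start, between genes, from 52253298 to 52253571, at rank 36961 (94.6%). The second rank lay beyond the whole length of the other lists, the longest of which held 18459 peaks. The first did so only through the ordering of ties. With each list limited to the length of the shortest, or to scores of at least 50, no library had a peak at Hoxa13. The nearest peak to the Hoxa13 start was 14.5 kb away in Shh-/- rep 2, 34.0 kb away in Shh-/- rep 1 and 69.5 kb away in WT rep 2.

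**Figure D2:**
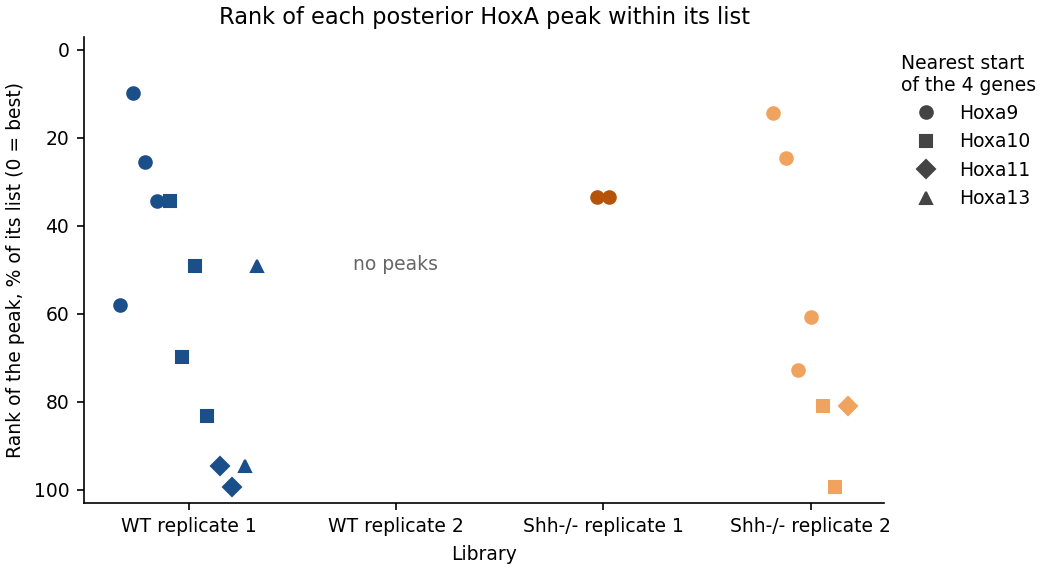
Rank of each of the 21 peaks as a percent of its own list (lower is better ranked), by library, with the marker shape giving the nearest start site of the 4 genes. The best ranked peak is that of the upstream Hoxa7 region in WT rep 1, at 9.78%, and Hoxa11 and Hoxa13 peaks lie at 49.0% or lower in the lists.

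The peaks of the genes were not highly ranked as a set. Their median rank was 53.5% of the list in WT rep 1, 33.4% in Shh-/- rep 1 and 72.9% in Shh-/- rep 2. Their median length was 370.5 bp in WT rep 1 against 414 bp in its whole list, 610.5 against 356 bp in Shh-/- rep 1 and 534 against 515 bp in Shh-/- rep 2. The remaining peak, from 52218494 to 52219052 in WT rep 1 (57.9%), lay in the Hoxa9 window but at the Hoxa7 promoter, 126 bp before the start of a Hoxa7 transcript of the basic set.

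The covered share of each window fell in the order Hoxa9, Hoxa10, Hoxa11, Hoxa13 along the cluster, in each library that had more than 1 covered window, with Hoxa11 and Hoxa13 tied at 0 in Shh-/- rep 1. Of the Hoxa9 window, 28.0% was covered in WT rep 1, 0% in WT rep 2, 6.79% in Shh-/- rep 1 and 21% in Shh-/- rep 2. For Hoxa10 the shares were 18.6%, 0%, 2.99% and 14.3%. For Hoxa11 they were 11.8%, 0%, 0% and 8.03%. For Hoxa13 they were 3.76%, 0%, 0% and 0%. The median over windows of the same length was 2.26% in WT rep 1 and 0% in the other libraries. The Hoxa9 window also held the peaks at Hoxa7 starts, which the Hoxa10 window did not. They made up 559 and 1503 of 5045 covered bp in WT rep 1. In Shh-/- rep 1 they made up 634 of 1221 bp, and in Shh-/- rep 2 1295 of 3778 bp. Without them Hoxa9 would lie below Hoxa10 in WT rep 1 and Shh-/- rep 2, but not in Shh-/- rep 1.

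No step of this order could pass the test. Hoxa9 exceeded Hoxa10 by 4.99 ± 4.05 points (SD, n = 4; exact sign-flip permutation test over libraries, two-sided, p = 0.25, adjusted p = 0.375 over the 3 neighbours). Hoxa10 exceeded Hoxa11 by 4.02 ± 3.17 points (exact sign-flip p = 0.25, n = 4, adjusted p = 0.375). Hoxa11 exceeded Hoxa13 by 4.01 ± 4.63 points (exact sign-flip p = 0.5, n = 4, adjusted p = 0.5). The smallest p that 4 libraries allow is 0.125, but a library with a difference of 0 raises it. With WT rep 2 at 0 it was 0.25 for Hoxa9 against Hoxa10 and for Hoxa10 against Hoxa11. With Shh-/- rep 1 also at 0 it was 0.5 for Hoxa11 against Hoxa13. Each of these p-values was thus the smallest possible. In gene bodies alone the order of the middle genes turned, with Hoxa10 below Hoxa11 (Hoxa10 minus Hoxa11, -2.62 ± 4.88 points, SD, exact sign-flip permutation p = 0.5, n = 4), while Hoxa9 stayed the most covered at 31.7%, 0%, 7.35% and 24.5% and Hoxa13 the least at 6.97%, 0%, 0% and 0%. Overlap of the windows of Hoxa9, Hoxa10 and Hoxa11 brings their shares closer, since the same peaks enter 2 of them.

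Hoxa13 was set against the merged window of Hoxa9 to Hoxa11. That window was covered over 20.4% in WT rep 1, 0% in WT rep 2, 3.73% in Shh-/- rep 1 and 14.9% in Shh-/- rep 2. The Hoxa13 window was covered over 3.76% in WT rep 1 and 0% in the other 3. Its share was lower in 3 of 4 libraries and equal at 0 in WT rep 2. The mean difference was -8.81 ± 8.19 points (0.940% against 9.75%, SD, n = 4, exact sign-flip permutation test, two-sided, p = 0.25). That is the smallest p possible here, since the difference in WT rep 2 was 0.

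None of the 15 regions was called in both libraries of WT and in neither Shh-/- library (WT-specific), where 2.09% of all regions were. None was called in both Shh-/- libraries and in neither WT library (Shh-specific), against 0.396%, and none in all 4 libraries, against 7.97%. A region could be neither WT-specific nor in all 4 lists without a peak in WT rep 2. WT rep 1 alone called 8 of the 15, against 51.6% of all regions. Shh-/- rep 2 alone called 3, against 7.33%, namely those upstream of Hoxa9, in the Hoxa10 intron and at the Hoxa11 start. WT rep 1 and Shh-/- rep 2 shared 2 that the other lists lacked, at microRNA 196b and the shorter Hoxa10 start, against 11%. The WT-only regions were called in the longest list, and the share of 8 in 15 was near the background.

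No difference between the genotypes was detectable at these genes in the number of peaks or the covered length. The number of peaks was 12 and 0 in WT and 2 and 7 in Shh-/-, or 6 ± 8.49 against 4.5 ± 3.54 (SD, n = 2 each, exact permutation test, two-sided, p = 1). The covered length was 7.156 and 0 kb in WT and 1.221 and 4.878 kb in Shh-/-, a difference of 0.529 kb (exact permutation p = 1, n = 2 each). In both measures the Shh-/- values lay between the WT values. Hoxa9 was covered over 14 ± 19.8% in WT and 13.9 ± 10.1% in Shh-/-, and Hoxa13 over 1.88 ± 2.66% and 0% (exact permutation p = 1 for each of the 4 genes, n = 2 each).

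As a share of its own list, the group was 0.0307% in WT rep 1 (12 of 39080 peaks, 95% Wilson interval 0.0176 to 0.0537%), 0% in WT rep 2, 0.0358% in Shh-/- rep 1 (0.00981 to 0.130%) and 0.0379% in Shh-/- rep 2 (0.0184 to 0.0783%). For the count of 0 in WT rep 2 the Wilson interval ran up to 0.0321%, above the share in WT rep 1, while a limit of 3 peaks of its list is 0.0251%. Intervals and this limit cover counting error only. Here the Shh-/- shares both lay above the WT shares, at 0.0369 ± 0.00151% against 0.0154 ± 0.0217% (SD, n = 2 each), a WT minus Shh-/- difference of -0.0215 points (exact permutation p = 0.333, the smallest that 2 against 2 allows). WT rep 1 lay well inside the intervals of both Shh-/- libraries, and most of the gap between the groups came from WT rep 2. Without WT rep 2 the difference was -0.00615 points and without WT rep 1 it was -0.0369 points.

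**Figure D3:**
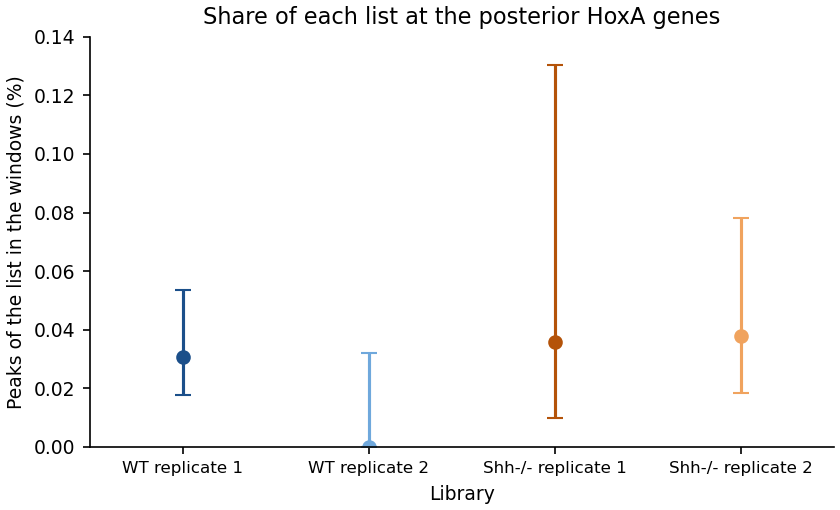
Share of each library's peak list that lies in the posterior HoxA windows, in percent, with points for the libraries and bars for the 95% Wilson intervals. WT rep 1 at 0.0307% sits near the Shh-/- libraries at 0.0358% and 0.0379%, and WT rep 2 is at 0.

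Posterior HoxD, the genes Hoxd9 to Hoxd13, patterns the same limb parts and served for comparison. The merged posterior HoxA windows were covered over 15.6%, 0%, 2.66% and 10.6% in WT rep 1 and 2 and Shh-/- rep 1 and 2, and those of posterior HoxD over 14.5%, 3.58%, 0% and 6.42%. The difference was 1.10 ± 3.37 points, higher in 3 of 4 libraries and within the spread between libraries (exact sign-flip permutation test, two-sided, p = 0.5, n = 4, adjusted p = 0.5 over 2 comparisons of this kind). WT rep 2 had 3 peaks in posterior HoxD and 0 in posterior HoxA, while Shh-/- rep 1 had 2 in posterior HoxA and 0 in posterior HoxD. The Hoxd13 window, the counterpart of Hoxa13, was covered over 14.5% in WT rep 1 and 1.69% in Shh-/- rep 2, where the Hoxa13 window had 3.76% and 0%.

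Among the other 35 Hox genes, those with covered shares nearest to the mean of the 4 genes were Hoxa2, Hoxd8, Hoxc6, Hoxa3 and Hoxc4. Likeness was the sum over the 4 libraries of the absolute differences, which was 6.07 points for Hoxa2 and 10.6 points for Hoxc4. Hoxa7, whose window shares the upstream Hoxa7 region with that of Hoxa9, was covered over 36.5%, 0%, 7.03% and 29.4% of its window, more than any of the 4 in the libraries with peaks.

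In sequence, each region was read at the summit of its peak with the lowest rank number, which favours the shorter lists. The 15 regions had a median GC content of 52.5% in 200 bp around the summit (range 41.5 to 69.5%), against 55.5% over all 44692 regions. Motifs were searched on both strands. A GC box was in 5 of the 15 regions, against 22.9% of all regions and 32.7% of 32851 RefSeq promoters. The promoters were read over the 250 bases before the start, a longer stretch than the 200 bp of the regions. A CCAAT box was in 5 of 15, against 23.1% and 33.8%. In 2 of these 5, the match was at the Shh-/- rep 1 summit and not at those of WT rep 1 and Shh-/- rep 2. These were the upstream Hoxa7 region and the region at the start of the shorter Hoxa9 transcript. The CTCF letters were in 1 of 15, the upstream Hoxa7 region, against 6.86% and 7.06%, and there too at the Shh-/- rep 1 summit alone. Over the 21 single summits a GC box was at 6, a CCAAT box at 5 and the CTCF letters at 1. The GLI letters TGGGTGGTC with at most 1 mismatch, bound by the transcription factors of the SHH pathway, were in 0 of 15, against 5.56% and 5.79%. They did occur at 1 of the 21 single summits, that of Shh-/- rep 2 at the shorter Hoxa10 start. The HOX13 letters CAATAAA were in 0 of 15, against 2.15% and 4.2%. A match is a run of letters and not a site that was shown to be bound.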

How the data were processed

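ATAC-seq libraries of 2 WT and 2 Shh-/- posterior forelimb buds were assigned to groups from their titles, which give genotype and number. The submitters' processing notes name Bowtie2 2.2.5, MACS2 2.1.0 and mm10 (GRCm38). Peaks were called in each library at a q-value cutoff of 0.05 with a window of 200 bp. Read filters and any Tn5 shift are not given in the sources used here. The authors deposited 1 peak list per library, with a score and a summit distance for each peak. By the caller's format the score is a scaled −log10 q-value, which the files do not state, so scores were used only for ranks within a list, with ties ordered by position. The fold, p-value and q-value columns held 0 and were not used. Without read counts the study's limma test was not repeated.

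Regions are unions of peaks that share 1 bp or more. Promoter peaks lay from 2 kb before to 1 kb after a start site (GENCODE M21, basic set). Exact permutation tests were two-sided, and 2 against 2 allows no p under 0.333. The genes named were the 4 HoxA genes, other genes with an exon or start site under a peak in their windows, and the 5 Hox genes nearest in covered share. Genes of posterior HoxD and examples from the marker and cofactor lists were named in addition, after their values were seen. One of 2 comparisons with other parts of the Hox clusters is not reported here. The genes, lists and markers were chosen with earlier results of these data known. Alternatives were 10 kb flanks, the summit or centre of a peak in the window, gene bodies alone, a score of at least 50, lists limited to the length of the shortest (equal list size), an overlap of at least 50 bp, leaving out each library and a replicate block. Scripts were tested on simulated data and run in Python 3.11.15 with numpy 2.4.6, scipy 1.17.1 and matplotlib 3.10.9.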

Additional observations from a re-analysis of the deposited data

How the results depend on the processing

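The difference in peaks between the genotypes (WT minus Shh-/-, 1.5) changed with list length and with single libraries. It was -1.5 at equal list size, with 1 and 0 peaks in WT and 2 and 2 in Shh-/- (exact permutation p = 0.333, n = 2 each), -0.5 with a score of at least 50 and 0 in gene bodies alone. Leaving out each library in turn gave -4.5 (without WT rep 1) to 7.5 (without WT rep 2), and -1 without Shh-/- rep 1. The difference in covered length (0.529 kb) was -1.03 kb at equal list size and ran from -3.05 kb without WT rep 1 to 4.11 kb without WT rep 2, and was -1.3 kb without Shh-/- rep 1. Of the 15 regions, Shh-specific ones numbered 1 at equal list size and 0 to 3 without one library (3 without Shh-/- rep 1, 2 without WT rep 1). WT-specific ones numbered 0 to 8 and those in every library kept 0 to 2, both highest without WT rep 2. The cause of these changes was not tested, beyond the smaller number of libraries a call then needs. The mean differences in share of the list and between Hoxa13 and Hoxa9 to Hoxa11 kept their direction under each alternative run. The latter ran from -11.7 to -6.22 points without one library and was -3.87 points at equal list size, where no library had a Hoxa13 peak. For the share, the Shh-/- libraries did not always both lie above WT rep 1. With 10 kb flanks WT rep 1 was at 0.0384% and Shh-/- rep 1 at 0.0358%. In gene bodies alone they were at 0.01791% and 0.01789% (exact permutation p = 0.667 for both alternatives, n = 2 each). The smallest p is 0.333 between the genotypes. For the sign-flip test of Hoxa13 over all 4 libraries it is 0.25, since WT rep 2 had a difference of 0. No alternative could thus cross a threshold of 0.05, and the p-values do not bear on stability. With no peak in WT rep 2, the WT-specific regions and those called in all 4 libraries stay at 0 in every alternative that keeps this library. A replicate block gave the same differences, 1.5 peaks (exact sign-flip p = 1, n = 2 pairs), 0.529 kb (p = 1) and -0.0215 points (p = 0.5, the smallest that 2 pairs allow). Same-numbered libraries share only a number, and their calls deviated together with r = 0.245 over 44692 regions. Depth is unknown, and a list length that differs between replicates limits what a missing peak can show.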

Other observations

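Other gene lists of the Hox system were read in the same windows. Of 5 posterior HoxD genes, 5 had a peak in WT rep 1, 4 in WT rep 2, 0 in Shh-/- rep 1 and 5 in Shh-/- rep 2. Of 4 other HoxD genes the counts were 4, 3, 1 and 4. Of 7 posterior HoxB and HoxC genes, which are used mainly in the trunk and tail, they were 4, 3, 0 and 2. Of 7 cofactors and partners of HOX proteins, such as the Meis and Pbx genes that bind DNA together with them, they were 7, 6, 6 and 6. Of all protein-coding genes, 69.1%, 47.6%, 24% and 59.2% had a peak in such a window in the same order. The median covered share of the cofactor windows was 1.98%, 0.478%, 0.417% and 0.923%, against 15.2%, 0%, 1.49% and 11.2% for the 4 HoxA genes. Window length differs between genes, and the counts were not adjusted for it. Markers of the hindlimb (Pitx1, Tbx4 and Isl1) had a promoter peak in 3, 1, 0 and 2 of 3 cases, and markers of the posterior limb bud in 5, 2, 1 and 3 of 5. A promoter peak was called for 60.4%, 39.3%, 17.3% and 51.3% of all protein-coding genes.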
